A study of Homo sapiens with 6 samples.

Results

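A set of 6 genes was examined in the bulk RNA-seq table of a fibroblast model of oncogene-induced senescence: the Sprouty genes SPRY1, SPRY2 and SPRY4 and the Sprouty-related EVH1-domain genes SPRED1, SPRED2 and SPRED3. They were chosen by symbol, with earlier results of these data known, and are 6 of the 59050 entries of the table. All 6 reached the minimum for testing, as 15272 entries did. That minimum was a mean level over the 6 libraries of 1 TPM (a relative level corrected for transcript length and library total). The cells were HFF fibroblasts, labelled as a cell line, at about passage 18. Virus with the pLNC ER:RAS (G12V) construct, packaged in HEK293T cells, was brought into them, and resistant cells were kept under 200 µg/ml neomycin. The design text describes this 1 preparation and does not describe the DMSO arm apart, which is taken here to carry the construct too. In such constructs oncogenic H-RAS is joined to an oestrogen receptor domain, and the hormone analogue 4-hydroxytamoxifen (4-OHT) switches it on. One group (3 libraries) received 100 nM 4-OHT and was harvested after 7 days, and the other (3 libraries) is labelled DMSO, the solvent, with no harvest time of its own in the labels. Cells without the construct that received 4-OHT are not analysed here, so the action of the drug itself and that of activated RAS cannot be told apart. The labels do not tell if replicates came from separate cultures. The p-values therefore set the difference between groups only against the spread of these libraries, which may be technical.

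Sprouty and SPRED proteins are inhibitors of the RAS/ERK pathway that its own activity is known to induce, which makes them negative feedback regulators. Sproutys act between growth factor receptors and RAF through binding partners such as GRB2 and CBL, and share with SPREDs a cysteine-rich domain near the C terminus that places them at membranes. SPREDs carry an EVH1 domain near the N terminus, through which SPRED1 brings the RAS GTPase-activating protein neurofibromin (encoded by NF1) to the membrane, and loss of SPRED1 causes Legius syndrome, a condition that resembles a mild form of neurofibromatosis.

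The 5 genes SPRY1, SPRY2, SPRY4, SPRED1 and SPRED2 rose in the 4-OHT libraries, between 2.43-fold and 5.08-fold in mean TPM, and SPRED3 did not pass the test except under median-of-ratios scaling, under quantile normalization or without 4-OHT replicate 3. In all, 5 of the 6 genes were higher and 0 lower at an adjusted p under 0.05, where 19.8% of the 15272 genes tested were higher, 29.9% were lower and 49.6% were called in either direction. The count was 6 under those 3 settings. All 5 rose by at least 1 log2 unit, as 4.22% of the genes tested did, and in all 5 the lowest 4-OHT library lay above the highest DMSO library, as for 23.8% of the genes tested (59% did not overlap in either direction). The median log2 fold change of the 6 genes was 1.95, and that of all genes tested was -0.09. Because the 6 genes were chosen with earlier results of these data known, these counts and medians are descriptions only. Fold changes are given as differences of log2(TPM + 1) between 4-OHT and DMSO, with the standard error (SE) from limma; the added 1 makes changes of weakly expressed genes look smaller than they are.

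**Figure D1:**
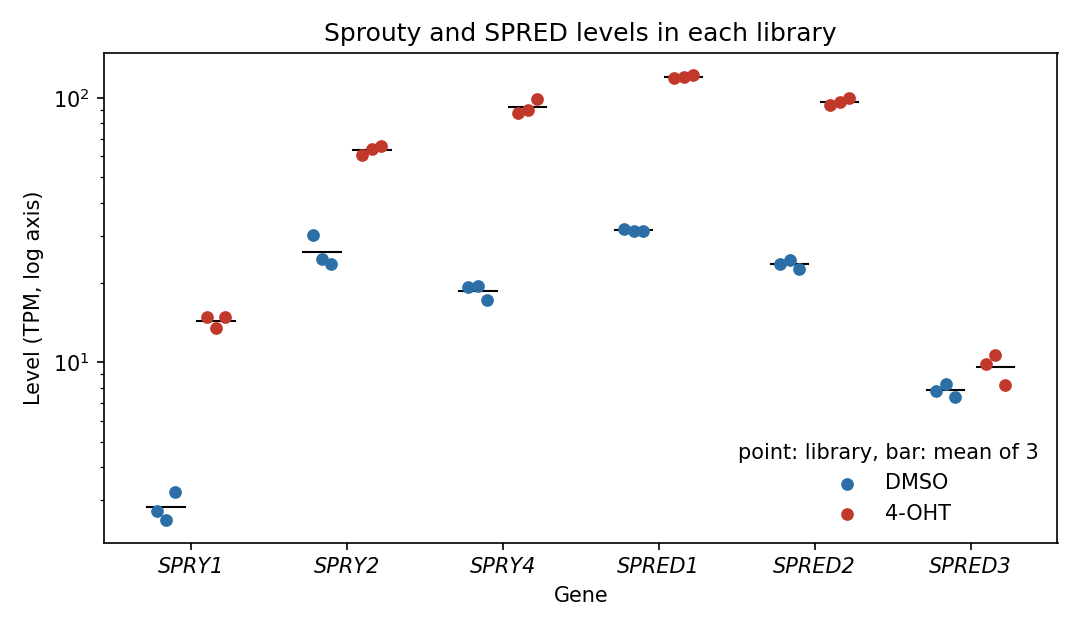
Level of each Sprouty and SPRED gene in each library, in TPM on a log axis, with DMSO libraries in blue, 4-OHT libraries in red and a bar at the mean of the 3 libraries. The red points lie above the blue points for every gene but SPRED3, where the lowest 4-OHT library (8.16 TPM) lies below the highest DMSO library (8.29 TPM).

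For genes that rose, sequence before the first start listed for each in RefSeq (GRCh38.p14) is shown. Only the longest unbroken stretch of each window outside annotated exons of the gene (GENCODE 29) is printed. For SPRED3 this omits a shorter stretch outside exons, and it leaves out SPRED1, whose window lies wholly in an exon, and SPRED3 is added as the member that did not pass the test. The windows are chr4:123396545-123396794 (+ strand), chr13:80341127-80341376 (- strand), chr5:142324418-142324497 (- strand), chr2:65432638-65432849 (- strand) and chr19:38389541-38389611 (+ strand). Each runs 5′ to 3′ on the strand of its gene, toward the listed start. The printed stretches of SPRY4, SPRED2 and SPRED3 end 170, 38 and 179 bases before that start. Those of SPRY4 and SPRED3 lie within the GENCODE bounds of the gene itself. Capitals mark GGAAG, the core of ETS-factor sites, and GGGCGG, the SP1 box, on either strand.
SPRY1: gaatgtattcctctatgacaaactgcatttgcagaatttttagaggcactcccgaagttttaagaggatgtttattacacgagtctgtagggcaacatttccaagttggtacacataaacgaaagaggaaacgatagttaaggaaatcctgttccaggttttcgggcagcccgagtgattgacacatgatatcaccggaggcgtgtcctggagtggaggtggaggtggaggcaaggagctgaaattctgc
SPRY2: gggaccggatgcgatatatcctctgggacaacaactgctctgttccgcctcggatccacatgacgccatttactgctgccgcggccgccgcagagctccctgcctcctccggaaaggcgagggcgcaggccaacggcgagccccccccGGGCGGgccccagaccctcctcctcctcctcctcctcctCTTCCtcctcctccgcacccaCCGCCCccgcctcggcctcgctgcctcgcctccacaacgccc
SPRY4: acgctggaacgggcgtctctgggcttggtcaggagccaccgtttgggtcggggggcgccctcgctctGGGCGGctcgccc
SPRED2: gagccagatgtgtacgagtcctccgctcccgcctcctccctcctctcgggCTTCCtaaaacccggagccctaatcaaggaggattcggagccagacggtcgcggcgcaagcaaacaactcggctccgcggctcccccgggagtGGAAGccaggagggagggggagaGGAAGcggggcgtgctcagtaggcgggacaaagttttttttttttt
SPRED3: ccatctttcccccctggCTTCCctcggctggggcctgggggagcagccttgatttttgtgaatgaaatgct
Over the full 250 bases before all 11 starts that RefSeq lists for the 6 genes, GGAAG was found at 9 starts, of 5 genes, and at 65.1% of 35116 promoter windows of the same length. No GGAAG was found in the SPRY4 window or in the first SPRY1 window, while the second SPRY1 window held 3. GGGCGG was found at 5 starts, of every gene but SPRED2, and in 42.6% of all windows. The AP-1 motif TGANTCA was found at 1 start, the first of SPRED3, 60 bases before it, and in 6.57% of all windows. Neither TGACGT, the core of the cyclic AMP response element, nor the E-box CACGTG was found in any of the 11 windows (7.1% and 6.34% of all windows). No match overlapped a match of another motif. A match describes letters only, and which start is used in these cells cannot be read from a table of genes.

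SPRY4 (ENSG00000187678.9, chromosome 5, 142310427 to 142326455, GRCh38), which restrains ERK activation by growth factors, had the largest log2 fold change of the 6 genes. It was read at 87.6, 90.1 and 98.7 TPM in 4-OHT replicates 1, 2 and 3 and at 19.2, 19.4 and 17.2 TPM in DMSO replicates 1, 2 and 3. The groups were far apart, with the 4-OHT library of lowest level 4.53-fold above the DMSO library of highest level. The log2 fold change was 2.25 (SE 0.0729, adjusted p = 8.92e-07), the 130th highest of the 15272 genes tested. A row of its own, SPRY4-AS1, holds a transcript of the opposite strand that overlaps the gene without sharing exon bases. It was at 7.38, 4.12 and 3.51 TPM in 4-OHT and at 1.82, 1.60 and 2.06 TPM in DMSO (log2 fold change 1.04, SE 0.240, adjusted p = 0.00984), a call lost with no filter on low values (adjusted p = 0.0956), while its other alternatives gave 0.00434 to 0.0336. The entry RF02039, annotated as miscellaneous RNA, also lies within SPRY4 on the opposite strand and was picked with its values known. It was at 4.39, 4.58 and 4.55 TPM against 1.82, 0.263 and 0.462 TPM. Another such entry there, RF02038, was listed at 0 TPM in all 6 libraries. Whether the counting used strand is not given in the sources used here. Neither SPRY4-AS1 nor RF02039 shares exon bases with SPRY4. Reads of unspliced RNA could still be counted for the wrong entry, which was not tested.

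SPRY1 (ENSG00000164056.10, chromosome 4, 123396795 to 123403760), an inhibitor of receptor tyrosine kinase signalling known for its part in kidney development, had the lowest DMSO level of the 6. It was read at 14.8, 13.4 and 14.8 TPM in 4-OHT and at 2.74, 2.52 and 3.22 TPM in DMSO. Every 4-OHT library was at least 4.16 times the highest DMSO library. The mean TPM ratio, 5.08-fold, was the highest of the 6 genes, above the 4.96-fold of SPRY4. On the log2(TPM + 1) scale SPRY1 came after SPRY4, at 2.01 (SE 0.110, adjusted p = 9.05e-06), and with log2(TPM + 0.1) the values were 2.31 for SPRY1 and 2.30 for SPRY4, so the order of these genes rests on the pseudocount.

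SPRY2 (ENSG00000136158.11, chromosome 13, 80335976 to 80340951), which binds the ubiquitin ligase CBL, rose least of the 5. It was read at 60.8, 63.7 and 65.7 TPM in 4-OHT and at 30.3, 24.5 and 23.5 TPM in DMSO. The DMSO libraries were spread more widely than the 4-OHT libraries (coefficient of variation 14.2% and 3.83%), with DMSO replicate 1 above the other two, and the groups did not overlap. The log2 fold change was 1.26 (SE 0.0986, adjusted p = 5.26e-05).

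SPRED1 (ENSG00000166068.12, chromosome 15, 38252326 to 38357249), the partner of neurofibromin, was the most abundant of the 6 genes in every library. It was read at 119, 119.7 and 122 TPM in 4-OHT and at 32.0, 31.3 and 31.5 TPM in DMSO. Replicates were closest for this gene (coefficient of variation 1.07% in 4-OHT and 1.19% in DMSO), and the ratio between any 4-OHT and any DMSO library lay between 3.73 and 3.89. The log2 fold change was 1.90 (SE 0.0438, adjusted p = 2.42e-07), the lowest adjusted p of the 6.

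SPRED2 (ENSG00000198369.9, chromosome 2, 65310851 to 65432637), which like SPRED1 inhibits RAS-dependent activation of ERK, was read at 93.4, 96.4 and 100.1 TPM in 4-OHT and at 23.5, 24.2 and 22.5 TPM in DMSO. Its 4-OHT libraries were 3.85 to 4.45 times its DMSO libraries. The log2 fold change was 2.0 (SE 0.0553, adjusted p = 4.98e-07).

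SPRED3 (ENSG00000188766.12, chromosome 19, 38388421 to 38399587), a family member known chiefly from brain, was read at 9.86, 10.6 and 8.16 TPM in 4-OHT and at 7.80, 8.29 and 7.40 TPM in DMSO. The groups overlapped, since 4-OHT replicate 3 lay below DMSO replicate 2. The mean TPM ratio was 1.22, with ratios between single libraries from 0.985 to 1.43, and the log2 fold change was 0.25 (SE 0.115, adjusted p = 0.112). SPRED3 was called after median-of-ratios scaling (0.34, adjusted p = 0.0438), under quantile normalization (0.47, adjusted p = 0.0113) and without 4-OHT replicate 3 (0.35, adjusted p = 0.0382), and over all alternatives the adjusted p ran from 0.0113 to 0.343. Quantile normalization raised the log2 fold change of the genes tested by a median of 0.131, and median-of-ratios scaling by 0.0916.

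**Figure D2:**
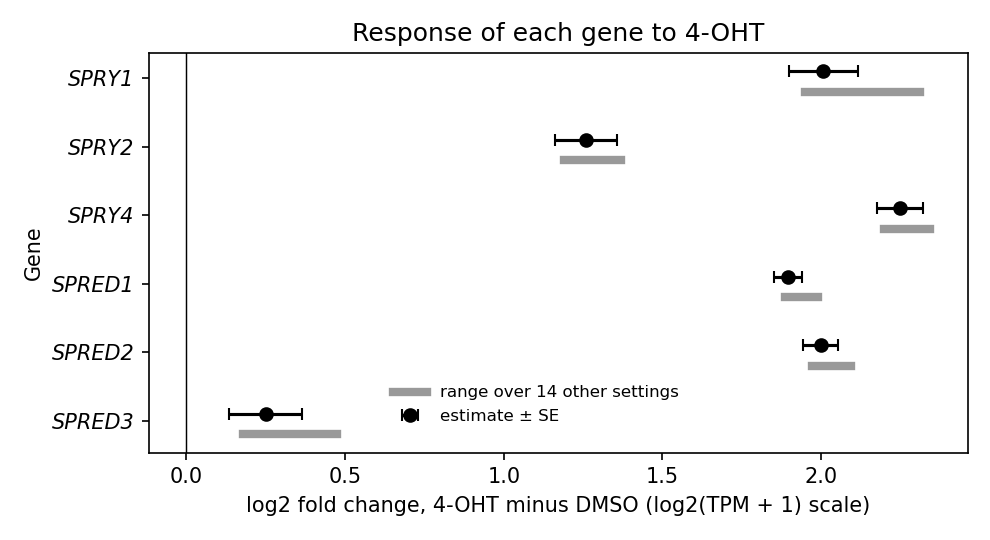
Log2 fold change of each gene, as a difference of log2(TPM + 1), 4-OHT minus DMSO (black point with its SE), and the range of that value over the 14 other settings (grey bar). The estimates of SPRY1, SPRY4, SPRED1 and SPRED2 lie between 1.90 and 2.25, that of SPRY2 at 1.26 and that of SPRED3 at 0.25.

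The members were then compared in response with one another, as the difference between the log2 fold changes of 2 genes, for all 15 pairs. With 3 libraries against 3 an exact permutation test (2-sided) cannot give a p below 0.1, and no pair could pass a threshold of 0.05. In 12 of the 15 pairs the difference between the 2 genes within a library did not overlap between the groups, with the smallest exact p the design allows (0.1, adjusted p = 0.125 over the 15 pairs, exact permutation). The share of such pairs among other genes was not computed, so this count has no background and is a description only. Among single genes tested, 59% did not overlap between the groups in either direction. SPRY2 rose less than SPRY4 by 0.99 (SE 0.0936), less than SPRED2 by 0.74 (SE 0.106) and less than SPRED1 by 0.64 (SE 0.104), each without overlap. SPRED3 stood below SPRED1 by 1.65 (SE 0.119) and below SPRED2 by 1.75 (SE 0.125). SPRED1 and SPRED2 differed by only 0.10 (SE 0.0384), also without overlap. The 3 pairs that overlapped were SPRY1 with SPRY4 (-0.24, SE 0.141), with SPRED1 (0.11, SE 0.0883) and with SPRED2 (0.01, SE 0.119). These contrasts use log2(TPM + 1), which makes the change of SPRY1, lowest in DMSO, look smaller. With log2(TPM + 0.1) the log2 fold changes were 2.31 (SPRY1), 2.30 (SPRY4), 1.925 (SPRED1) and 2.04 (SPRED2). How near SPRY1 lies to these genes thus rests on the pseudocount, and overlap was not computed with 0.1.

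TPM are per transcript length, so levels can be set side by side between genes. In DMSO the order from high to low was SPRED1, SPRY2, SPRED2, SPRY4, SPRED3 and SPRY1, and SPRY2 and SPRED2 were the neighbours whose libraries overlapped. In 4-OHT it was SPRED1, SPRED2, SPRY4, SPRY2, SPRY1 and SPRED3, and SPRED2 and SPRY4 were the neighbours that overlapped. By mean level, SPRED1 ranked 1418th of the genes tested in 4-OHT and 4932nd in DMSO, and SPRY4 ranked 1860th and 6989th. In these bulk libraries a change in the number of cells that express a gene and a change in RNA per cell cannot be told apart.

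Summed over the 6 genes, the level was 386, 394 and 409 TPM in the 4-OHT libraries and 116, 110.1 and 105 TPM in the DMSO libraries, a ratio of means of 3.59. The Sprouty sum was 170 ± 8.30 against 47.5 ± 4.31 TPM (mean ± SD, n = 3 libraries each) and the SPRED sum was 226 ± 3.73 against 62.8 ± 1.29 TPM, ratios of 3.58 and 3.6. SPREDs made up 57.1% ± 0.824 of the sum in 4-OHT and 57.0% ± 1.94 in DMSO, a difference smaller than the SD of either group. Within that, the share of SPRY2 was 16% ± 0.204 against 23.6% ± 2.29 and that of SPRED3 was 2.42% ± 0.370 against 7.10% ± 0.394, while the share of SPRY4 was 23.2% ± 0.775 against 16.8% ± 0.648. These sums and shares are descriptions with no test.

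**Figure D3:**
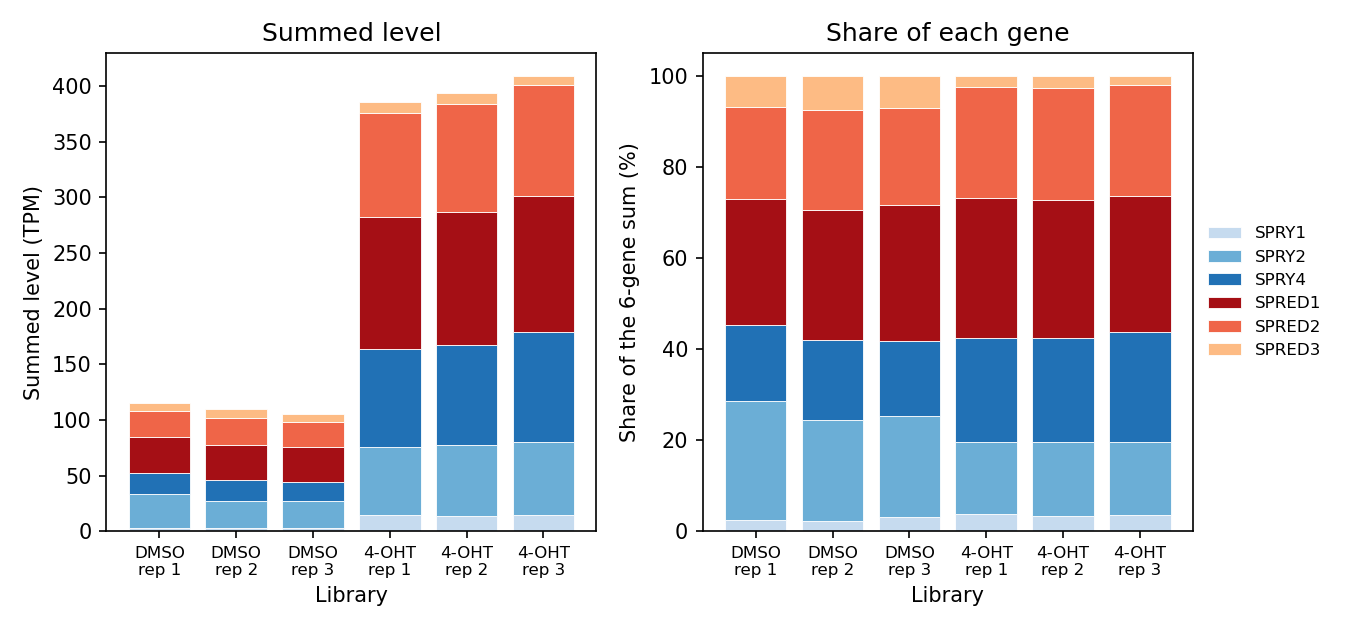
Left, summed TPM of the 6 genes in each library, split by gene. Right, the share of each gene in that sum, in percent. The sums run from 105 to 116 TPM in DMSO and from 386 to 409 TPM in 4-OHT, and the SPRED genes (red shades) hold between 54.8% and 58.3% of the sum in every library.

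The genes that surround these inhibitors in the pathway were counted by role, from lists of 97 genes that were all found in the table. The lists were chosen with earlier results of these data known, so their counts and medians are descriptions only. Over all genes tested, 19.8% rose, 29.9% fell and 49.6% were called in either direction, with a median of -0.09. Among growth factor receptors, which start the signal, 8 of 14 were tested, 3 rose and 4 fell (87.5% called, median -0.40). The receptor tyrosine kinase ERBB2 fell from 39.6 ± 1.59 to 12.6 ± 1.33 TPM (-1.59, adjusted p = 8.92e-06) and the platelet-derived growth factor receptor PDGFRA from 90.9 ± 2.53 to 47.5 ± 1.49 TPM (-0.92). The fibroblast growth factor receptor FGFR1, on whose signalling Sproutys are known to act and which is named with its values known, was at 162 ± 7.27 against 167 ± 14.7 TPM (-0.04, adjusted p = 0.656). Of the adaptors and nucleotide exchangers 11 of 12 were tested, 4 rose and 2 fell (6 and 1 under median-of-ratios scaling, 5 and 1 under quantile normalization), with a median of 0.13. The share called, 54.5%, was near that of all genes tested. The exchange factor RASGRF2 rose from 20.4 ± 0.303 to 35.5 ± 1.83 TPM (0.77) and the docking protein GAB2 fell from 4.71 ± 1.06 to 2.01 ± 0.0927 TPM (-0.90).

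Of 12 RAS proteins and GTPase-activating proteins 5 rose and 2 fell (6 and 2 under median-of-ratios scaling), with a median of 0.09. The share called, 58.3%, was near the 49.6% of all genes tested. The HRAS row rose from 935 ± 24.7 to 1281 ± 51.1 TPM (0.45, adjusted p = 9.99e-05). Reads of an introduced H-RAS transcript would fall in this row beside those of the endogenous one, and the part of each was not tested. RASAL2, a GTPase-activating protein, rose (15 ± 1.95 against 7.6 ± 0.493 TPM, 0.89), and RRAS2 fell (60.1 ± 1.67 against 101 ± 1.62 TPM, -0.74). NF1, the partner of SPRED1 and picked with its values known, was at 23.6 ± 0.446 against 25.9 ± 3.63 TPM (-0.12, adjusted p = 0.371). The kinases of the RAF, MEK and ERK tiers had 1 of 8 tested genes higher and 0 lower (12.5% called; without DMSO replicate 3, 1 was lower). The 1 that rose was MAP2K2, which encodes MEK2, at 198 ± 10.6 against 170.4 ± 1.32 TPM (0.21, adjusted p = 0.00815). Their median was 0.01.

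Among 14 known partners or regulators of Sprouty and SPRED proteins, 2 rose and 3 fell (6 and 3 under median-of-ratios scaling, 3 and 3 under quantile normalization, 5 lower without DMSO replicate 1), with a median of 0.06. The share called was 35.7%, against 49.6% of all genes tested. The ubiquitin ligase NEDD4 rose from 40.7 ± 1.13 to 58.5 ± 1.61 TPM (0.51, adjusted p = 0.000182), and the caveolar protein CAV1 fell from 2282 ± 39.6 to 1283 ± 17.7 TPM (-0.83, adjusted p = 1.23e-06). CBL, also picked with its values known, was at 15.6 ± 0.430 against 8.49 ± 6.54 TPM (1.25, SE 0.700, adjusted p = 0.18), with a wide spread between the DMSO libraries.

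Of 12 other feedback inhibitors of the pathway 10 were tested, of which 6 rose and 2 fell, with a median of 0.89. The share called was 80%, against 49.6% of all genes tested. ERRFI1, which inhibits the epidermal growth factor receptor, rose most (158 ± 0.535 against 23.6 ± 1.31 TPM, 2.70, adjusted p = 1.55e-07), followed by the ERK phosphatase DUSP6 (385 ± 7.41 against 91.9 ± 3.89 TPM, 2.05). The 2 that fell, both chosen after their values were seen, were the receptor antagonist LRIG1 (7.87 ± 0.346 against 15.6 ± 0.437 TPM, -0.90) and PEBP1, the RAF kinase inhibitor protein (263 ± 7.50 against 404 ± 17.8 TPM, -0.62). Of 16 genes known to respond to ERK, 15 rose and 1 fell (median 1.13). Like the other lists, this one was chosen with earlier results of these data known. The largest rises were of the transcription factors EGR2 (42.6 ± 1.60 against 0.425 ± 0.241 TPM, 4.95) and EGR3 (12.4 ± 0.606 against 0.331 ± 0.0830 TPM, 3.33). Both reached the minimum for testing only through the 4-OHT libraries, so their calls support nothing, though the count and median include them. The 1 that fell was the AP-1 subunit FOSL1 (118 ± 7.79 against 140 ± 0.392 TPM, -0.24, adjusted p = 0.00836), chosen after its values were seen, and that call was lost under median-of-ratios scaling and with no filter on low values.

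**Figure D4:**
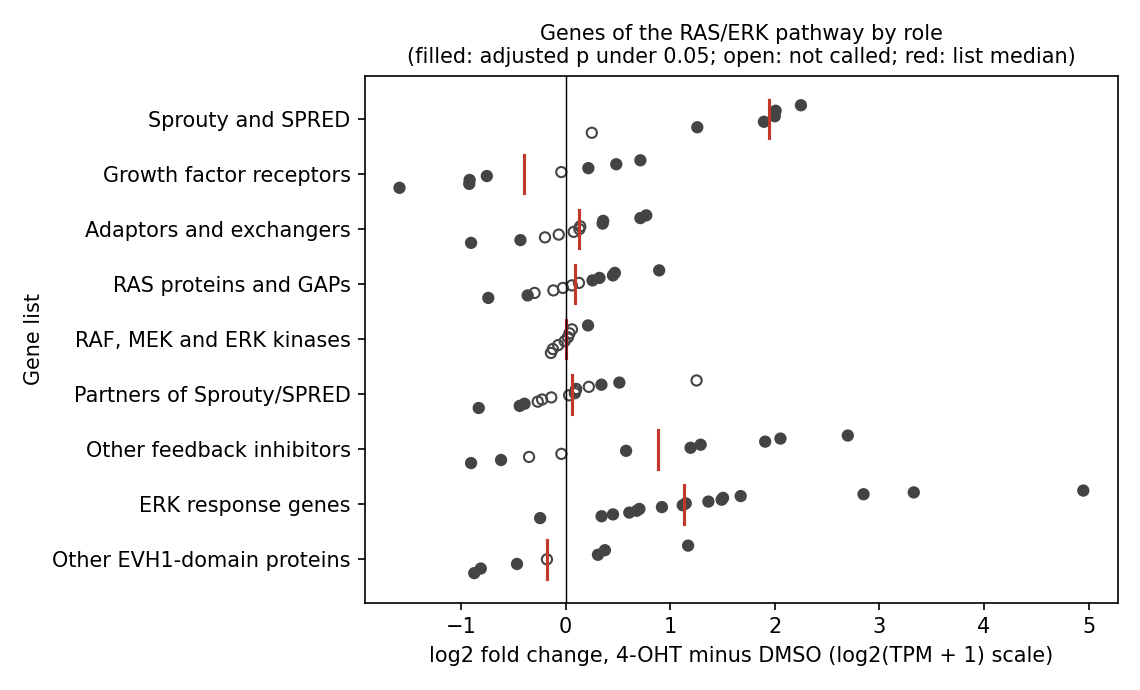
Log2 fold change of each tested gene by role in the pathway (x axis, as a difference of log2(TPM + 1), 4-OHT minus DMSO), with filled points for an adjusted p under 0.05, open points for genes not called and a red line at each list's median. The median is 1.95 for the Sprouty and SPRED genes, 0.89 for the other feedback inhibitors, 1.13 for the ERK response genes and 0.01 for the RAF, MEK and ERK kinases. The lists were chosen with earlier results of these data known.

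For each member the 3 genes whose profile over the 6 libraries was nearest were found among 9707 protein-coding genes averaging 5 TPM or more, by Euclidean distance between log2(TPM + 1) profiles centred on their means. The measure reflects mainly the size of the group difference and, with 6 libraries in 2 groups, is a description only. Nearest to SPRED1 were APBA1 (distance 0.0607), the ERK phosphatase DUSP4 (0.0843) and the metalloproteinase inhibitor TIMP3 (0.0853). SPRED2 lay nearest to MINDY4 (0.0882), ADAM19 (0.106) and ANKH (0.115), and SPRY4 to TGM2 (0.133), the amino acid transporter SLC7A5 (0.147) and PLCXD2 (0.171). For SPRY1 they were the growth factor TGFB2 (0.15), DUSP6 (0.163) and the phosphate transporter SLC20A1 (0.176), for SPRY2 the kinase PLK3 (0.159), PITX1 (0.178) and FOXQ1 (0.185), and for SPRED3 DOHH (0.116), ATP10D (0.127) and NME1 (0.131). DUSP4 and DUSP6, members of the list of other feedback inhibitors, stood at 91.4 ± 1.98 against 23.6 ± 1.03 TPM (1.91) and at 385 ± 7.41 against 91.9 ± 3.89 TPM (2.05), beside 1.90 for SPRED1 and 2.01 for SPRY1. In mean TPM, DUSP4 rose 3.87-fold and SPRED1 3.81-fold, while DUSP6 rose 4.18-fold and SPRY1 5.08-fold. PLCXD2 rose 7.18-fold and SPRY4 4.96-fold. The added 1 shrinks changes of low genes more, so a small distance need not mean equal fold changes.

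Libraries of 1 group were alike (Pearson correlation of log2(TPM + 1) from 0.984 to 0.985 within a group and from 0.928 to 0.933 between groups, across genes). All 11 fibroblast markers had a mean of at least 1 TPM, with sums of 22674 to 23083 TPM in 4-OHT and 22708 to 23386 TPM in DMSO. VIM made up the largest part of these sums (11537 against 10399 TPM), and single markers did move: 4 rose (COL6A1, VIM, THY1 and PDGFRB) and 7 fell, among them DCN (-1.04), FAP (-1.01) and COL3A1 (-0.91). Of the markers of other cells, 2 of 7 for keratinocytes and epithelia (sum 32.8 to 43.2 against 37.5 to 52.5 TPM, KRT1 at 0), 1 of 5 for endothelium (1.31 to 1.81 against 2.50 to 2.80 TPM), 2 of 5 for immune cells (59.5 to 67.3 against 60.4 to 90.7 TPM) and 2 of 5 for melanocytes (6.51 to 6.82 against 8.50 to 9.55 TPM, TYR and DCT at 0) had a mean of at least 1 TPM. For smooth muscle it was 3 of 5 (sum 35.6 to 42.8 against 92.4 to 98.2 TPM), of which RGS5 rose (2.57) and CNN1 (-2.50) and ACTG2 (-2.53) fell. For HEK293 cells, in which the virus was packaged, it was 2 of 5 (PAX8 and NEFM, sum 10.8 to 11.3 against 0.573 to 1.72 TPM, SOX2 at 0). NEFM held most of the 4-OHT sum (8.42 ± 0.382 against 0.300 ± 0.184 TPM), with PAX8 at 2.54 ± 0.165 against 0.932 ± 0.426 TPM. Both reached 1 TPM only through the 4-OHT libraries. LIN28B (0.0960 against 0 TPM) and PAX2 (0.00162 against 0.000295 TPM) were near 0. The part of these differences in the results above was not tested.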

How the data were processed

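The authors deposited a table of TPM with 1 column for each of the 6 libraries, whose totals run from 998367 to 998843. The tools listed in the submitters' processing notes are Trim Galore 0.6.6, STAR and StringTie, and the build is GRCh38. Which annotation and strand setting they used is not given in the sources used here. A single value of DMSO replicate 3, just under 0, was replaced by 0. TPM carry no depth, and neither intervals nor detection limits were derived from it.

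Entries averaging 1 TPM or more were fitted by limma 3.58.1, run in R 4.3.3 (variance trend, no covariates, 2-sided) on log2(TPM + 1), with Benjamini-Hochberg adjustment over all 15272 genes tested, with a threshold of 0.05. The test was checked on simulated data. Values in the text are 4-OHT first unless a change is given as from DMSO to 4-OHT, with mean ± SD of 3 libraries. The alternatives were 2 other pseudocounts, 2 other filters, 2 scalings between libraries, no variance trend, a replicate block and each library left out. The members and the 8 pathway lists were chosen with earlier results of these data known. Named genes are the 6 members, up to 2 genes per list (those changed most among the called genes whose groups do not overlap), the 3 genes most like each member, entries named after a member, and HRAS.

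Positions are from GENCODE 29 and promoter sequences from RefSeq. Protein sequences and SPRY3 were not analysed here. Of the 50-base stretches of the GENCODE transcripts of each gene, 1.56% for SPRED1 and 0.442% for SPRED3 recur in transcripts of other genes and 0 for the others, and none is shared between members. Sequences and plots used Python 3.11.15 with numpy 2.4.6, pandas 2.3.3 and matplotlib 3.10.9.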

Additional observations from a re-analysis of the deposited data

How the results depend on the processing

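SPRY1, SPRY2, SPRY4, SPRED1 and SPRED2 passed the test in the same direction under all 14 alternatives, with log2 fold changes of 1.95 to 2.31, 1.19 to 1.37, 2.20 to 2.34, 1.89 to 1.99 and 1.97 to 2.09. SPRED3 crossed the threshold under median-of-ratios scaling (0.34), quantile normalization (0.47) and without 4-OHT replicate 3; leaving out 1 library gave 0.18 to 0.35. Among all genes tested, 3018 rose and 4561 fell (60.2% of calls). Median-of-ratios scaling gave 3844 and 3766 (49.5%), quantile normalization 3650 and 3604 (49.7%). With no filter on low values 3 RAS and GTPase-activating genes were higher, 2 adaptors higher and 1 lower, and 0 ERK response genes lower. Lower adaptors numbered 0 among genes of at least 5 TPM, 1 under median-of-ratios scaling, quantile normalization and the replicate block, and 1 to 2 on leaving out 1 library. The 2 adaptors that fell, FRS3 and GAB2, averaged below 5 TPM in both groups, so that filter left them untested. Under median-of-ratios scaling 6 partners were higher and 0 ERK response genes lower. Leaving out 1 library gave 3 to 5 lower partners and 0 to 1 lower kinases. The cause of the other changes was not tested.

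The labels do not tell if same-numbered libraries of the groups were paired. The correlation of their deviations was 0.0555, 0.0327 and 0.0237. 4-OHT replicates 1 and 2 correlated best with the DMSO library of the same number, and 4-OHT replicate 3 with DMSO replicate 2 (0.0526). Values this small, from 3 libraries per group, cannot decide whether libraries were paired. With the replicate block 7065 genes were called in place of 7579, and SPRED3 stood at 0.25 (adjusted p = 0.105). Among named genes, DOHH and ATP10D lost their call in 7 alternatives each, and NME1 and SPRY4-AS1 with no filter. Since depth is unknown, the counting error of low genes such as SPRY1 in DMSO cannot be given.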

Other observations

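The genes that lie beside the members on the chromosome were read as values, for the nearest tested protein-coding gene on each side, chosen by position outside the naming rule. Beside SPRY4, NDFIP1 (156 kb away) was at 88.9 ± 2.87 against 83.1 ± 2.57 TPM (0.10, adjusted p = 0.14), and the growth factor FGF1 (266 kb away) was at 6.73 ± 0.973 against 8.53 ± 0.974 TPM (-0.30, adjusted p = 0.0947). The neighbours of SPRED1 fell while SPRED1 rose: MEIS2, a homeobox factor 1151 kb away, from 45.4 ± 4.82 to 18.3 ± 0.148 TPM (-1.26, adjusted p = 2.5e-05) and FAM98B, 96.9 kb away, from 26.9 ± 5.89 to 18 ± 0.538 TPM (-0.53, adjusted p = 0.021). Beside SPRED2, ACTR2 (39.6 kb away) rose from 320.4 ± 9.86 to 392.3 ± 10.2 TPM (0.29) and MEIS1 (1001 kb away) fell from 22.7 ± 0.414 to 7.82 ± 1.43 TPM (-1.44). Beside SPRY2, NDFIP2 (780 kb away) rose from 46.2 ± 3.96 to 69.2 ± 11.3 TPM. On the other side SLITRK6 (5452 kb away) was at 2.06, 2.05 and 1.94 TPM in 4-OHT and at 0.0517 TPM in DMSO replicate 1, and was listed at 0 in the other DMSO libraries. It reached the minimum for testing only through the 4-OHT libraries, so its call supports nothing. ANKRD50, 1260 kb from SPRY1, rose (16.2 ± 0.156 against 10.4 ± 0.434 TPM), and SPATA5, 77.3 kb away on the other side, was at 2.62 ± 0.210 against 3.41 ± 0.553 TPM (adjusted p = 0.148). GGN and FAM98C, 0.3 and 3.5 kb from SPRED3, were not called (adjusted p = 0.931 and 0.988).

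Other proteins with an EVH1 domain, the domain that names the SPREDs, went both ways. Of 8 listed, 7 were tested, 3 rose and 3 fell (4 fell under quantile normalization, with the replicate block and without DMSO replicate 3, and 2 rose and 2 fell among genes of at least 5 TPM), with a median of -0.18. The share called was 85.7%, against 49.6% of all genes tested. The scaffold HOMER1 rose from 2.32 ± 0.0139 to 6.47 ± 0.217 TPM (1.17, adjusted p = 0.000109), and EVL, an actin regulator, fell from 33.4 ± 3.64 to 17.7 ± 0.145 TPM (-0.87, adjusted p = 0.000174).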
